A study of Mus musculus with 16 samples.

Results

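The regions described here are 3078 stretches of the mouse autosomes with a called H3K27ac peak in both wild-type pachytene spermatocyte samples and in neither A-myb mutant sample. They were chosen by the peak calls themselves: the 4 deposited lists were merged on chromosomes 1 to 19 where peaks overlapped by 1 bp or more, which gave 33417 merged regions, and the wild-type-only ones are 9.21% of those. That both wild-type samples had a peak there and both mutant samples had none is therefore the choice and not a result. Beside them, 9763 merged regions (29.2%) had a peak in all 4 lists and 1432 (4.29%) had one in both mutant lists and in neither wild-type list.

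The spermatocytes came from C57BL/6J mice of 8 to 12 weeks, either wild type (n = 2) or homozygous for the repro9 allele of A-myb, written A-mybrepro9/repro9 (n = 2). For each preparation testicular cells of 1 male were separated by STA-PUT sedimentation, and chromatin digested with micrococcal nuclease went into native chromatin immunoprecipitation with an antibody to histone H3 acetylated at lysine 27. The same series holds RNA-seq of J1 embryonic stem (ES) cells, strain 129S4/SvJae, at passage 36 and day 3, in 4 groups of 2 libraries: neither treatment (control), doxycycline alone (Dox, 1 µg/ml), A-MYB alone, and both. All 4 groups carry the same transgenes, dCas9-VPR and a guide RNA to the RLTR10B2 endogenous retrovirus with DsRed, so the control cells have them too. The spermatocytes have no RNA data among those analysed here.

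H3K27ac is a histone mark found at active promoters and enhancers. A-MYB, encoded by Mybl1, is a transcription factor that switches on meiotic, piRNA and spermatid genes in pachytene spermatocytes, and males that lack its function arrest in meiosis. The repro9 allele is a chemically induced point mutation of the gene, not a deletion. Major urinary protein, vomeronasal receptor and keratin-associated protein genes, which recur below, each lie in clusters of related genes, only some of them near-identical copies.

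Of the 102 promoters of genes with a wild-type-only region at the transcription start site (TSS), 65 (63.7%) shared a stretch of 40 bases with another gene's promoter. Among all 31396 autosomal promoters of the RefSeq table (GRCm38.p6, 250 bases before to 50 after each start) the share was 7.42%, and among the 180 promoters at regions of all 4 lists it was 46.1%. At mutant-only regions it was 8 of 12 promoters (66.7%), so the high share is not particular to wild-type-only regions. The pair below shows what such a copy looks like. Both come from the run of regions with the most members, in a keratin-associated protein cluster, and the letters in capitals are the bases that do not align between the 2 sequences, which differ by 11 edits over the 250 bases upstream of the TSS. Gm11554 lies at chr11:99804447-99804696 and Krtap4-13 at chr11:99809897-99810146, both on the minus strand of GRCm38.
Gm11554: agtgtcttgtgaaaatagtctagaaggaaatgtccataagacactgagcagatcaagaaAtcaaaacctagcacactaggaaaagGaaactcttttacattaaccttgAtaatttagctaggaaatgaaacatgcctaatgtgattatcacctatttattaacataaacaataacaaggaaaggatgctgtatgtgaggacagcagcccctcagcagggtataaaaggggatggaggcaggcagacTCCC
Krtap4-13: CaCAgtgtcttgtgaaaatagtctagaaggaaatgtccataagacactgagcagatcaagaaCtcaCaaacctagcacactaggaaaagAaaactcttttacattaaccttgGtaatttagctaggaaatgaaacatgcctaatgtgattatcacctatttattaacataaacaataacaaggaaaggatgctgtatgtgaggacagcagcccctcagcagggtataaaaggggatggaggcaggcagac

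The promoter of Gm11569, in the same cluster, had 0 differences from that of Gm11554 over 300 bases. Reads from such stretches cannot be assigned to 1 copy by sequence, and the sources used here do not say how they were handled. The other promoters shown have no such copy. Topaz1 (chr9:122746949-122747198, plus strand) is a germ cell gene needed for male meiosis. Adam1b (chr5:121503436-121503685, minus strand) encodes a fertilin alpha subunit of the sperm surface. Gapdhs (chr7:30739408-30739657, minus strand) encodes the sperm form of glyceraldehyde 3-phosphate dehydrogenase and was the only gene of the listed meiotic, piRNA, spermatid or axoneme genes with a wild-type-only region at its TSS. Capitals mark MYB motifs, TAACNG or CAACNG read on either strand. These genes were picked for display after their values were seen.
Topaz1: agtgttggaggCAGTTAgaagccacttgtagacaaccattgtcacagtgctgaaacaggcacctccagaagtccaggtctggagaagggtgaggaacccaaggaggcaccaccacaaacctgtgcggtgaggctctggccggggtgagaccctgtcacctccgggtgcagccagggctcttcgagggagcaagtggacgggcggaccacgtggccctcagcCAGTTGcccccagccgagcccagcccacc
Adam1b: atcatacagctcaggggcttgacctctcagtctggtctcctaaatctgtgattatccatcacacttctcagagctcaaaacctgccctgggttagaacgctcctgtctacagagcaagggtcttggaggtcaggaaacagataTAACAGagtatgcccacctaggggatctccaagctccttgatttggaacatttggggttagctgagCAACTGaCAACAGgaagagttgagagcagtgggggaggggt
Gapdhs: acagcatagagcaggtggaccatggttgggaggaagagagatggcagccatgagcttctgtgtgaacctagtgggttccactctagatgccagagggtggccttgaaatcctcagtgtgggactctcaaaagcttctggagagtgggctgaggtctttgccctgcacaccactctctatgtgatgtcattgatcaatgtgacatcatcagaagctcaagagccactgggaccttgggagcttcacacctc

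Topaz1 held 2 MYB motifs, starting 239 and 29 bases before the TSS, Adam1b held 3, starting 107, 41 and 34 bases before it, and Gapdhs held 0 in these 250 bases. A MYB motif was present in 60 of the 102 promoters (58.8%), against 49.2% of all promoters and 48.3% of those at regions of all 4 lists. CAACNG was held by 52.9% against 34.4% of all promoters, and TAACNG by 29.4% against 23.4%. Among the 37 promoters without a copied stretch, 25 (67.6%) held a MYB motif, against 49.0% of all 29065 such promoters. At regions of all 4 lists 48.5% of such promoters held one. At mutant-only regions 5 of 12 promoters (41.7%), copied or not, held one. The 102 promoters belong to 87 genes, and some overlap or are copies of each other, so they are not independent. CCAAT, the NF-Y box, was in 58.8% against 37.3%, the CRE TGACGTCA in 0% against 1.83%, and the RFX half-site GTTGCCA in 3.92% against 4.41%, each on either strand. CCAAT was also in 51.7% of the promoters at regions of all 4 lists and in 8 of 12 (66.7%) at mutant-only regions. CCAAT and GTTGCCA can overlap by their CCA, and the MYB forms can overlap on opposite strands, where a promoter counts once. The 102 promoters also differed from all promoters in base composition, with a median GC content of 49.0% against 53.0% and a median of 2 CpG dinucleotides against 7. At regions of all 4 lists these medians were 48.2% and 4, and at mutant-only regions 43.2% and 1. Neither CCAAT nor base composition thus sets the wild-type-only regions apart from the other classes. A match of letters is a description and not a bound site.

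The peaks of the wild-type-only regions were weak compared with those of regions in all 4 lists. The tag counts, scores and folds are the authors' values, where the score, from MACS, runs from 50 upward and grows with the strength of the call. In wild type replicate 1 the regions held 28 to 851 tags with a median of 81.0, and in replicate 2 they held 26 to 717 with a median of 72.0. Their median score was 86.3 in replicate 1 and 72.7 in replicate 2, while regions of all 4 lists had medians of 132 and 114. Within each list the median member peak stood at percentile 45.1 and 35.3 of the scores. The median fold over background was 4.79 and 4.53, against 5.45 and 5.30. Mutant-only regions were weak as well, with median scores of 69.6 and 68.0 in mutant replicates 1 and 2, at percentiles 39.0 and 36.8. Low scores are thus not particular to wild-type-only regions.

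The 2 wild-type replicates ranked the regions only partly alike. Replicate 1 gave the higher score in 2133 of 3078 regions (69.3%), and both scores reached 100 in 406. The scores had a Pearson r of 0.590 and a Spearman rho of 0.462 across regions, which are not independent replicates and share the 2 libraries. In 1062 regions (34.5%) the smaller of both scores was under 60. The scatter of member scores shows this spread.

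**Figure D1:**
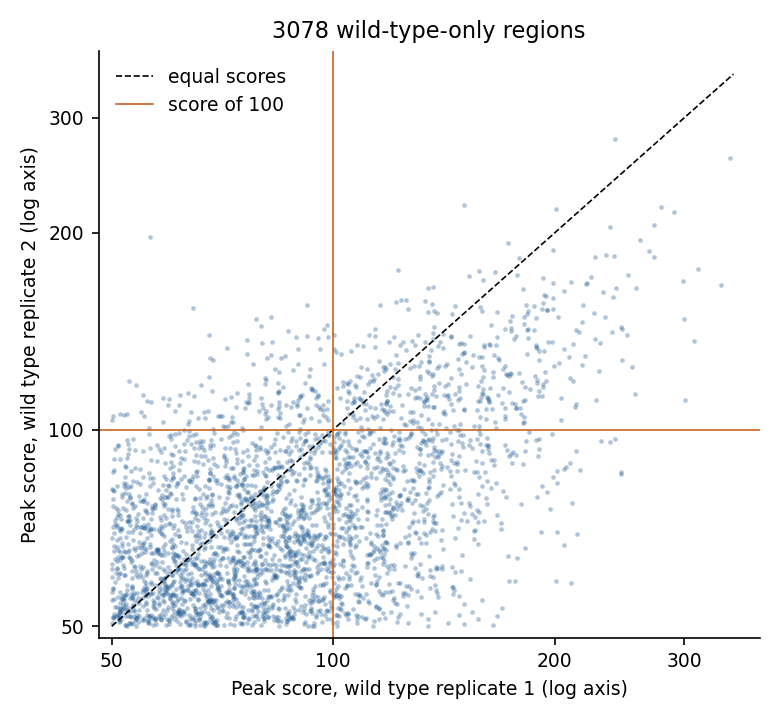
Peak score of each of the 3078 wild-type-only regions in wild type replicate 1 (horizontal, log axis) and replicate 2 (vertical, log axis), with the dashed line at equal scores and the coloured lines at a score of 100. Most points lie below the dashed line, and 406 of 3078 lie in the upper right corner with both scores at 100 or more.

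The rule turns on whether a peak was called, and many regions sat close to that edge. The weakest members had a smaller score of 50, for instance chr12:3330820-3333561, 20.9 kb from the TSS of Rab10, with 165 and 161 tags and scores of 50 and 68.2. Just outside, a mutant peak with a score of 50 kept chr12:65026967-65029575 near Prpf39 out, although its wild-type scores were 72.1 and 71.6. Of the 4075 regions with peaks in both wild-type lists and 1 mutant list, the mutant score was under 60 in 1223 (30.0%), with a median of 67.9. The wild-type lists were also longer, with 24515 and 20862 autosomal peaks holding 2782616 and 2147077 tags, against 20034 and 19023 peaks holding 1960618 and 1768013 tags in the mutant. The total depth of the libraries is unknown from these files, and its part in which regions were called was not tested. A missing mutant peak thus means no call, not absence of acetylation.

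The lists went against the pattern the mark's name leads one to look for. The windows of 1 kb on either side of all TSSs cover 2.26% of the autosomes, and the midpoints of 1.84% of the wild-type-only regions, 0.553% of the regions of all 4 lists and 0.435% of the mutant-only regions lay there, each a smaller share. Of 14 ubiquitously expressed genes with a TSS in the table, 0 had a region of any kind within 1 kb. Of 11 pachytene spermatocyte markers, 1 had a peak at the TSS in wild type replicate 1 and 0 in the other 3 lists, and of 11 spermatid markers 1 had a peak in each list. Over all genes the share with a peak at the TSS was 2.48% and 1.35% in the wild-type lists and 0.932% and 0.897% in the mutant lists, so marker counts of 0 or 1 tell no cell type apart. Sertoli, Leydig, myoid and macrophage markers had 0 in every list. Of 2 endothelial markers 1, Tie1, had a peak within 1 kb in both wild-type lists, in a merged region that has peaks in all 4 lists. The sources used here do not say what the antibody libraries were called against. The regions are therefore called by their rule, and not enhancers or promoters.

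Within those low shares, wild-type-only regions lay within 1 kb of a TSS more often than the other classes. The share was 79 of 2984 (2.65%, exact 95% binomial interval 2.1 to 3.29%) against 154 of 9401 (1.64%, 1.39 to 1.92%) for regions of all 4 lists and 9 of 1380 (0.652%, 0.299 to 1.23%) for mutant-only regions. These intervals cover counting error only, and chromosome 18 is left out because the TSS table used has no entry there. Many of these TSSs have copied promoters: 65 of 102 for wild-type-only regions and 83 of 180 for regions of all 4 lists. Promoters without a copied stretch numbered 37 for the 2984 wild-type-only regions and 97 for the 9401 regions of all 4 lists. The share of regions at such uncopied promoters alone was not counted. The order between wild-type-only regions and those of all 4 lists was the same in each band of width, from 1.83% against 0.594% under 1000 bases to 9.33% against 3.63% at 4000 bases or more. Over all peaks, wild type replicate 1 had 2.46% within 1 kb of a TSS, replicate 2 had 1.60%, and the mutant lists 1.16% and 1.18%. Farther out the classes were close: 11.9%, 12.3% and 10.5% lay within 10 kb of a TSS, and 24.6%, 25.6% and 25.3% touched a protein-coding gene, whose bodies cover 40.3% of the autosomes. The median distance to a TSS was 63.6 kb, against 63.9 kb and 69.8 kb.

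**Figure D2:**
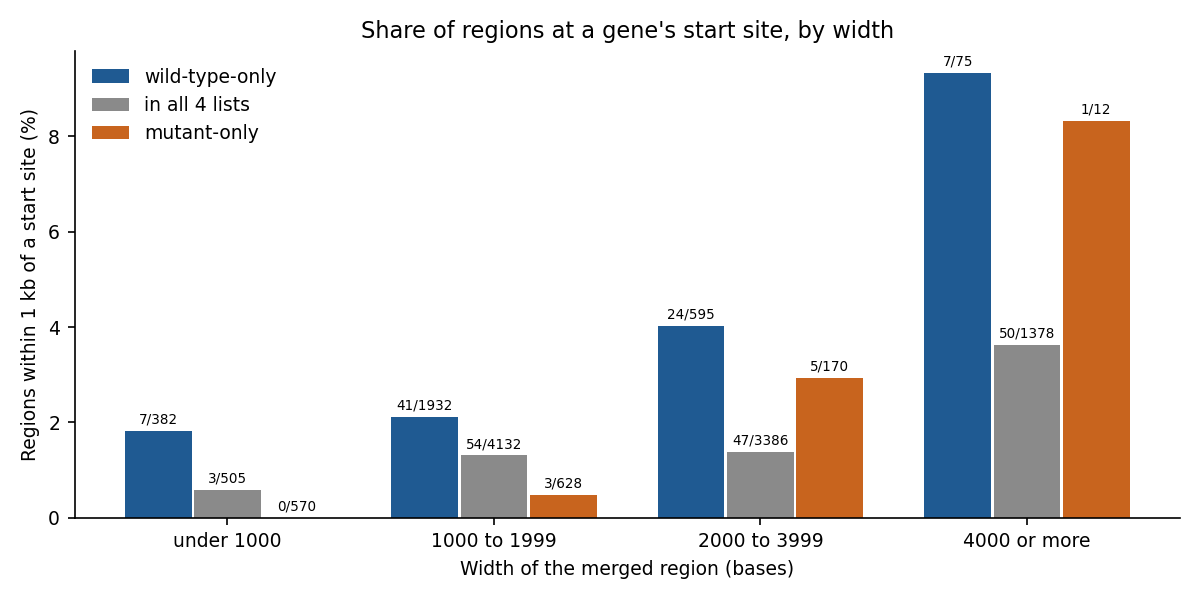
Share of merged regions within 1 kb of a TSS (vertical, percent) in 4 bands of region width (horizontal, bases), for wild-type-only, all-4-list and mutant-only regions; the numbers over the bars are regions at a TSS over regions in the band. The wild-type-only bar is above the all-4-list bar in each band, from 1.83% against 0.594% to 9.33% against 3.63%, and the widest bands hold few regions.

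The wild-type-only regions were narrower than those of all 4 lists. Their median width was 1486 bases (488 to 8199), against 2021 for all 4 lists and 1078 for mutant-only regions, and 2.5% reached 4000 bases, against 14.7% and 0.838%. Regions of all 4 lists join peaks of more lists, so their merged width is larger partly by construction. Peaks in single lists were closer, with median lengths of 1313 and 1352 bases in wild type replicates 1 and 2, against 1551 and 1578. The widest wild-type-only region, chr10:50419414-50427612, held 851 and 717 tags at scores of only 77.8 and 77.3, and lay 93.1 kb from the nearest TSS. The wild-type-only share of merged regions ranged from 8.21% on chromosome 18 to 11.2% on chromosome 7, which also had the highest ratio of wild-type-only to all-4-list regions, 0.456, ahead of 0.380 on chromosome 14 and 0.368 on chromosome 12.

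Of the 12 strongest members, ranked by the smaller of both scores, 5 overlapped an annotated gene and 1 covered a TSS. The first was chr8:20257476-20263753, which covers the TSS of the lncRNA gene Gm40468 and held 795 and 711 tags at scores of 346 and 261. The second was chr14:82082676-82084909, 1705 kb from the nearest TSS, with 167 and 180 tags at scores of 242 and 278. The third, chr16:46642245-46645090, lay 145 kb from Nectin3, a cell adhesion gene, with scores of 279 and 219. The fourth, chr14:54690911-54692963, lay 3.95 kb from Acin1, an apoptosis and splicing gene, with scores of 290 and 216. Others of the first 12 lay inside Nrg3 (a neuregulin), Gab2 (a signalling adaptor) and Ptprt (a receptor tyrosine phosphatase). Mybl1 itself, on chromosome 1, was 669 kb from the nearest member, at chr1:8997468-8998112 with scores of 61.1 and 81.9.

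Although the median gap between members was 390 kb, 251 regions (8.15%) formed 72 runs of at least 3 with gaps of at most 50 kb. Regions of all 4 lists formed 385 runs with 13.5% of their number, and mutant-only regions formed 5 with 1.12%. Those classes had median gaps of 143 kb and 998 kb. A fixed gap of 50 kb puts more of a denser class in runs, so these shares do not compare clustering between classes. Of the 72 runs, 54 held no region of all 4 lists, 64 held no mutant-only region, 35 touched a protein-coding gene and 21 touched no annotated gene.

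The run with the most members was chr11:99798073-99880035, 82.0 kb long, with 7 members over the genes of the Krtap4 cluster, which encode hair keratin-associated proteins. Its members covered the TSS of Gm11569 (scores 133 and 76.4), Gm11554 (92.6 and 68.6), Krtap4-13 (129 and 78.1), Gm11568 (163 and 94.6), Gm11559 (130 and 139) and Gm11567 (114 and 139). Major urinary protein genes held 4 runs, all on chromosome 4: chr4:60576023-60732491 with Mup10 and Mup11 and chr4:61399646-61490941 with Mup15 had 6 members each, chr4:61184468-61291313 with Mup13 had 4, and chr4:60456898-60516327 with Mup1 had 3. A run of 6 at chr9:88652221-88770645 spanned Mthfsl and Bcl2a1d, and a run of 5 at chr7:23165101-23256094 spanned the pheromone receptor genes Vmn1r165 and Vmn1r166. The 5 members at chr5:95151861-95242796 were the only merged regions in that run.

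**Figure D3:**
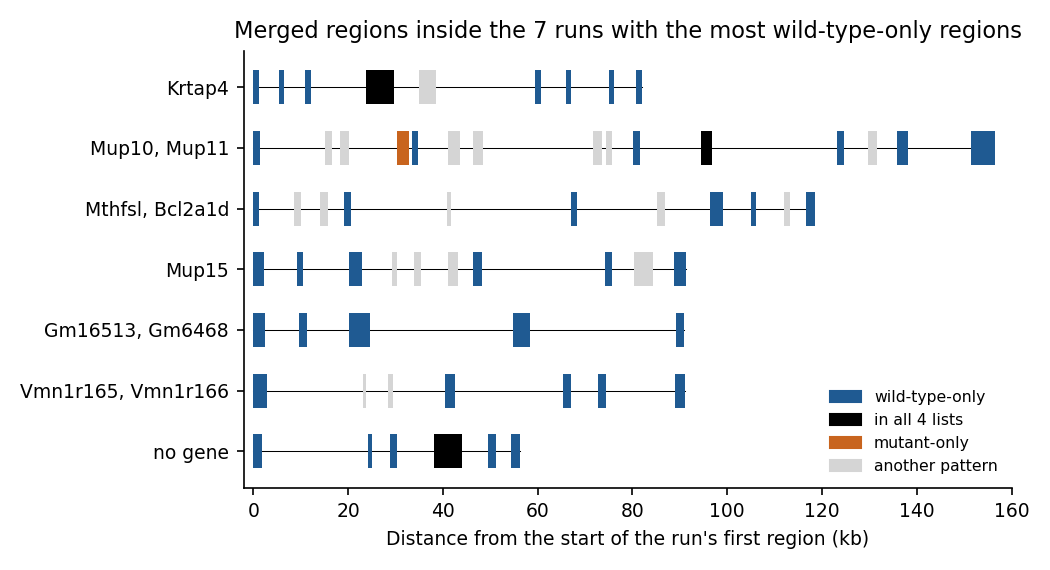
Merged regions (boxes) inside the 7 runs with the most wild-type-only regions, drawn to scale by distance in kb from the start of the run's first region (horizontal), 1 run per line, labelled by genes it spans. The Krtap4 run holds 7 wild-type-only regions beside 1 region of all 4 lists, and the run at Gm16513 and Gm6468 holds 5 and no other region.

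Members were also counted within 10 kb of the genes of clustered families. A wild-type-only region lay that close to 939 of 20665 protein-coding genes (4.54%), and to 13 of 22 Mup genes (59.1%), 8 of 45 Pramel genes (17.8%), 26 of 230 Vmn1r genes (11.3%) and 6 of 52 Krtap genes (11.5%). For these 4 families the share with a region of all 4 lists was 40.9%, 11.1%, 8.70% and 5.77%, against 13.2% of all coding genes. Other clustered families had a lower share with wild-type-only regions than with those of all 4 lists: 9 of 122 Vmn2r vomeronasal receptor genes (7.38% against 16.4%) and 1 of 10 Speer genes (10% against 50%). Olfactory receptor genes, also clustered, had 33 of 1100 (3.00% against 11.8%), and ribosomal protein genes 1 of 68. The families were chosen after the values were seen, and their members share regions.

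The 3 genes of the Hspa1 heat shock cluster on chromosome 17 each had a wild-type-only region within 1 kb of the TSS. Hspa1a and Hspa1b encode stress-induced HSP70 chaperones and Hspa1l a testis form. The region at Hspa1b, chr17:34956915-34959018, had 114 and 98 tags and scores of 103 and 96.1. The region at Hspa1a, chr17:34969781-34971864, had 110 and 105 tags and scores of 80.2 and 80.9, and ended 839 bases from the TSS of Hspa1l, which is the same region counted for both genes. The promoters of Hspa1a and Hspa1b were 98.7% identical over 300 bases, so tags at either may belong to the other.

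In all, 87 of 25748 genes (0.338%) had a wild-type-only region within 1 kb of the TSS, 62 of them protein-coding and 25 lncRNA genes. Among the germ cell genes, Gapdhs had 61 and 53 tags at scores of 56.2 and 50.6. Topaz1 had 43 and 39 tags at scores of 52.2 and 50.1, so both genes sat at the edge of the call. Adam1b had 163 tags in replicate 1 and 49 in replicate 2 (scores 155 and 52.5), and Adam1a, its neighbour, 115 and 50 (scores 182 and 65.9). At both fertilin genes replicate 1 was thus much the stronger. Tcp10a, a testis gene of the t-complex, had 248 and 202 tags (scores 90.6 and 67.7), and Speer1, of a testis glutamate-rich protein family, 294 and 229 (scores 122 and 50.8).

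Of the gene lists for the A-MYB programme, 1 gene had such a region at its TSS and 8 had one within 10 kb, where the shares over all genes were 0.338% and, for coding genes, 4.54%. The lists are small, and nothing is read from these counts. At the TSS the count was 0 of 26 meiotic prophase genes, 0 of 16 piRNA pathway genes, 0 of 14 late meiotic regulators, 0 of 24 axoneme genes and 1 of 24 spermatid genes. Within 10 kb it was 1 of 31 (Smc1b, a meiotic cohesin), 2 of 20 (Tdrd9 and Gtsf1, both piRNA factors), 0 of 18, 3 of 27 (Spag16, Cfap43 and Cfap54, axonemal proteins) and 2 of 28 (Gapdhs and Zpbp, a zona pellucida binding protein). Regions of all 4 lists lay within 10 kb of 7, 3, 2, 6 and 3 of these genes, against 13.2% of all coding genes. Spermatogonial genes had 0 of 17, ubiquitous genes 0 of 20, and testis somatic cell genes 1 of 29 (Fshr, of Sertoli cells).

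A wild-type-only region overlapped 631 protein-coding genes, and in 523 of them there was 1 such region. The genes with the most were looked up after the values were seen. Gm10634 and Pcdh15 each held 5, but Pcdh15 is 1554 kb long and also held 13 regions of all 4 lists. Camk1d, a calmodulin-dependent kinase of 421 kb, held 4 wild-type-only regions, all in 1 run of 15.8 kb (chr2:5546051-5561848), among 6 merged regions in the gene.

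The ES cell libraries show how RNA of the genes at these regions differed with A-MYB and with Dox in another cell type. All groups carry the RLTR10B2 activator, so its effect cannot be told apart from that of Dox itself. The 8 libraries had 26995317 to 33771487 gene counts. Mybl1 RNA was 8.38 and 6.92 CPM (counts scaled to library size) in control, 11.0 and 10.2 with Dox, 22.0 and 17.8 with A-MYB and 19.9 and 16.6 with both, so the libraries match their A-MYB labels. Nothing in the labels says that replicates came from separate cultures, so p-values measure only the spread between these libraries. Of the 87 genes, 48 were in the count table and 23 had enough counts to be tested, so the counts below are not over all of them. Gapdhs, Hspa1l, Adam1b and Tcp10a had at most 10 counts in any library and were not tested.

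With A-MYB alone, 6 of the 23 tested genes rose and 0 fell at an adjusted p under 0.05 (edgeR), where over all 14664 genes 19.5% rose and 15.2% fell. The 23 genes were low, with a median of 3.36 CPM against 21.1 over all genes. Their median log2 fold change was 0.15, against -0.00 over all genes. Kbtbd7, a cullin-3 ubiquitin ligase adaptor, had 17.6 and 18.8 CPM in control and 30.0 and 26.9 with A-MYB, a log2 fold change of 0.65 ± 0.11 (SE, adjusted p = 4.31e-05, edgeR). Gm14325 had 41.3 and 39.8 CPM in control and 64.5 and 56.4 with A-MYB, a log2 fold change of 0.57 ± 0.09 (adjusted p = 2.03e-05, edgeR). For both genes the groups did not overlap, which the rule for naming called genes required, so it is no added support. Pdcl (phosducin-like), Rspry1 (a RING and SPRY domain gene), Adss (adenylosuccinate synthase) and the zinc finger gene Zfp931 rose by log2 0.36, 0.28, 0.21 and 0.64. These 4 calls were each lost when some single library was left out, which left 2 genes called without control replicate 2 or without A-MYB replicate 1 and 3 without control replicate 1. Gm14325 and Zfp931 both lie on chromosome 2, and the promoter of each shares a 40-base stretch with another gene's, so their reads may be split between copies.

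In Dox-treated cells, adding A-MYB raised 3 of the 23 genes and lowered 6, against 26.8% raised and 28.4% lowered over all genes. On the first principal component both Dox + A-MYB libraries lay far from the remaining 6 (80.7 and 80.9, against -48.4 to -9.73), and the part of that distance in these calls was not tested. Under scaling by total counts the median of all genes moved by 0.19 (log2) and the split became 5 raised and 4 lowered. Kbtbd7 had 21.3 and 19.3 CPM with Dox and 11.8 and 11.5 with both, a log2 fold change of -0.80 ± 0.11 (adjusted p = 9.42e-07, edgeR). Wiz, a zinc finger partner of the G9a histone methyltransferase, had 76.8 and 79.7 CPM with Dox and 53.9 and 53.7 with both, a log2 fold change of -0.54 ± 0.08 (adjusted p = 1.54e-06, edgeR). Adss, Pdcl, Hspa1b and Rspry1 fell by 0.40, 0.48, 0.57 and 0.25 on the log2 scale. Scaled by total counts, Hspa1b and Rspry1 no longer passed, at -0.38 and -0.06, and their reads may be split with Hspa1a in the first case. Hspa1b also lost its call without Dox replicate 2 or Dox + A-MYB replicate 1 and Rspry1 without Dox replicate 1.

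The 3 genes raised were all low in the ES cells. Gm15455 had 2.27 and 2.37 CPM with Dox and 5.29 and 5.43 with both, a log2 fold change of 1.21 ± 0.23 (adjusted p = 7.94e-05, edgeR). The gene 1700010B08Rik had 0.151 and 0.206 CPM with Dox and 1.69 and 1.60 with both, a log2 fold change of 3.18 ± 0.67 (adjusted p = 0.000283, edgeR). The lncRNA 2700054A10Rik had 0.575 and 0.241 CPM with Dox and 1.4 and 1.01 with both, and lost its call without Dox replicate 2 or Dox + A-MYB replicate 1. Topaz1 had 0.697 and 0.825 CPM with Dox and 1.61 and 1.01 with both, a log2 fold change of 0.78 ± 0.54 that did not pass (adjusted p = 0.225, edgeR).

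**Figure D4:**
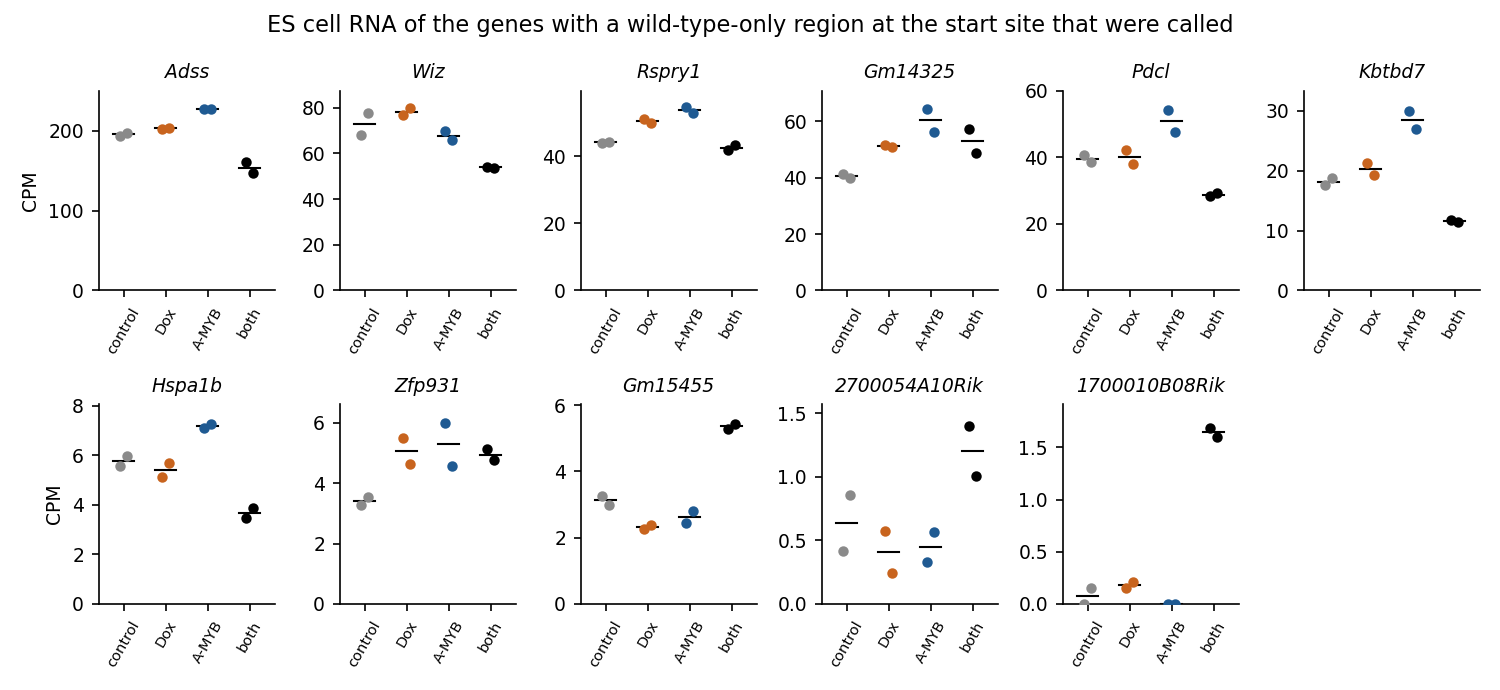
RNA level in CPM (vertical, from 0) of the 11 genes with a wild-type-only region at the TSS that were called in an ES cell comparison, in control, Dox, A-MYB and both; points are the 2 libraries of a group and lines their means. Kbtbd7, Pdcl and Adss are highest with A-MYB alone and lowest with both treatments, and Gm15455 and 1700010B08Rik are highest with both.

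Dox alone raised 2 of the 23 genes and lowered 0, against 17.9% and 14.3% of all genes. They were Gm14325, from 41.3 and 39.8 CPM to 51.7 and 50.8 (log2 fold change 0.34 ± 0.09, adjusted p = 0.0047, edgeR), and Zfp931, from 3.26 and 3.54 to 5.48 and 4.64 (0.58 ± 0.21, adjusted p = 0.0386, edgeR). Both had also risen with A-MYB alone, a comparison with the same control libraries. Zfp931 lost its call with DESeq2 and without any 1 of the 4 libraries compared, and Gm14325 lost it without control replicate 2.

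Among the genes with the nearest TSS within 100 kb of a member, 379 were tested. With A-MYB alone 115 (30.3%) rose and 19 (5.01%) fell, against 19.5% and 15.2% over all genes. The other classes gave similar shares: 27.7% rose and 7.32% fell of 1352 genes nearest to regions of all 4 lists, and 31.7% and 7.10% of 183 nearest to mutant-only regions. The genes of all 3 groups were lower than most, with medians of 9.98, 15.8 and 14.5 CPM against 21.1. With A-MYB added to Dox, 104 (27.4%) rose and 82 (21.6%) fell, against 26.8% and 28.4% over all genes, 26.5% and 25.9% for the genes of all 4 lists and 21.9% and 25.1% for mutant-only ones. With Dox alone 87 (23.0%) rose and 28 (7.39%) fell, against 17.9% and 14.3% over all genes, 23.7% and 10.1% for all 4 lists and 24.6% and 6.56% for mutant-only ones.

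Of 119 genes at least 4-fold higher with Dox alone, 8 (6.72%) had a wild-type-only region inside them or within 10 kb, against 3.21% of tested genes with coordinates. They were Btc (epidermal growth factor family), Cadps2 (vesicle release), Creb5 (a CREB family factor), Gab2, Pxdc1, Spata17, Tmem117 and Tmem150c. Gab2 held one of the 12 strongest members, chr7:97214697-97216845, with 140 and 115 tags at scores of 268 and 188, and its RNA was higher with Dox by log2 2.12 ± 0.55 (adjusted p = 0.00462, edgeR). Longer genes have more room for a region, and gene length was not taken into account. The same share was not counted for the other classes, so it cannot be called particular to wild-type-only regions. Slc13a3, with the log2 fold change of 10.12, had its nearest member 2808 kb away.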

How the data were processed

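Per the labels, H3K27ac was measured by native ChIP-seq in 2 wild-type and 2 mutant spermatocyte samples and RNA by RNA-seq in 8 ES cell libraries. The 4 input libraries were not analysed here. In the submitters' processing notes stand MACS 1.4.2, Bowtie2 2.3.3.1, HISAT2 2.1.0, HTSeq, bcl2fastq 2.20.0 and build mm10, with no role or setting. Per the file headers, the authors' deposited peak lists give tags as counts, a score (headed as a negative log10 p, but starting at 50, so used only as a score) and a fold enrichment ratio. For the ES cells the authors deposited raw counts per gene, whose 5 special lines were left out.

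Peaks were merged as described (pandas 2.3.3), and positions compared with RefSeq tables of GRCm38.p6, the same assembly as mm10. A promoter counted as copied if it shared 40 bases holding at least 20 different triplets with another gene's promoter. Sequences were aligned with edlib 1.3.9.post1. Of 23420 genes, 14664 passed filterByExpr and were fitted with edgeR 4.0.16 (TMM, glmQLFit, robust, 4 residual degrees of freedom, two-sided glmQLFTest, Benjamini-Hochberg over all tested genes). The fitting script was tested on simulated data. The SE is the log2 fold change over the root of its F statistic. The sources used here do not say whether counting used strand. The members, gene lists and alternatives were chosen with earlier results of these data known. Named were the 12 regions with the highest smaller score, the 6 widest, the largest runs and the regions at the edge of the rule. Also named were Mybl1, up to 6 listed genes at a TSS per list, and called genes per comparison whose compared groups did not overlap. Under that rule the promoters to print were those with a MYB motif at the first 12 regions or at listed genes. That applied to Gapdhs and Gm40468, and neither held one.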

Additional observations from a re-analysis of the deposited data

Results flagged for a closer look

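The X and Y chromosomes were outside the rule, yet their lists show the same class of region. On X, 371 of 3596 merged regions (10.3%) had a peak in both wild-type lists and in neither mutant list, and 124 had the opposite pattern. On Y, 493 of 2268 (21.7%) were wild-type-only and 15 mutant-only, while 82 were in all 4 lists. The Y lists were unequal in length, with 1744 and 1045 peaks in wild type against 264 and 258 in the mutant. Copied sequence on Y was not examined.

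By the interaction term of the edgeR model (adjusted p under 0.05), the A-MYB effect differed with and without Dox for 9 named genes. The share over all genes is not given here, so nothing is read from this number. These genes were named because they had passed in a comparison whose groups enter this term. Scaling by total counts moved the median A-MYB effect with Dox by 0.19 (log2) over all genes. The interaction is given under the main scaling only. The difference, with Dox minus without, was -1.45 (log2) for Kbtbd7, -0.88 for Hspa1b, -0.84 for Pdcl, -0.61 for Adss, -0.53 for Rspry1, -0.52 for Gm14325 and -0.43 for Wiz. It was 1.46 for Gm15455 and 7.42 for 1700010B08Rik, and the last value rests on A-MYB libraries with 0 counts, so it is no measure of size.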

How the results depend on the processing

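The number of wild-type-only regions was 2861 when a mutant peak within 1 kb also excluded a region, 2708 with a score of at least 100 in every list and 2253 with lists of equal length. It was 406 when only wild-type peaks needed a score of 100 and every mutant peak was kept. Most of the 2708 thus hold a called mutant peak with a score under 100, and they are not a subset of the 3078 members. The lists of equal length likewise left out low-scoring peaks before merging. With 1 list left out it was 4790 to 7026, by construction, since fewer lists must agree. The share within 1 kb of a TSS was 1.99% with a score of at least 100 in every list, where regions of all 4 lists had 1.52%, and 3.69% within 2.5 kb. It was 2.13% to 4.97% with 1 list left out, the highest without wild type replicate 2. Genes at a TSS numbered 53 with a score of at least 100 in every list, 9 with that score in wild type only, 55 with lists of equal length, and 119 to 386 with 1 list left out, again the most without wild type replicate 2. The share of promoters with a MYB motif was 60.9% where the whole window lay inside a region.

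Linking genes by the nearest TSS within 100 kb gave 134 calls for A-MYB alone, 186 for A-MYB with Dox and 115 for Dox alone, because more genes were tested. With 1 library left out the calls at a TSS numbered 2 to 6, 7 to 10 and 1 to 2 in these comparisons. DESeq2 gave 1 for Dox alone. A replicate block gave 6, 9 and 2 calls, as without it, and same-numbered libraries deviated together with correlations of -0.0269 to 0.0843, so the numbers do not pair them. Over 17 named gene results and all fits, 179 of 204 values kept their call, 25 kept their direction without passing and 0 reversed. Those 17 results were named because they had passed in the main fit, and some fits left out a library of neither compared group. The number of kept calls is therefore no measure of stability. Peak depth is unknown, which limits what a missing mutant peak shows.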
